A study of Mus musculus with 24 samples.

Results

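The response of the mouse kidney to YKL-05-099, a pan-SIK inhibitor that also acts on other kinases, was read from 16 of the 24 RNA libraries of the series, 8 from vehicle-treated and 8 from YKL-05-099-treated mice. All 16 samples were whole kidneys of 13-week-old C57BL6 mice labelled male. YKL-05-099 was injected intraperitoneally at 45 mg/kg and kidneys were taken 3 hours later. The remaining 8 libraries came from mice given subcutaneous hPTH 1-34 (PTH, an active N-terminal parathyroid hormone peptide) 1 hour before collection. The members were every library labelled with either treatment and every gene that averaged 0.5 FPKM or more across the 24 libraries (FPKM, fragments per kilobase of transcript scaled to the mapped total), which kept 13991 of 19426 table entries. The time between vehicle and collection was not given in the sources used here. The series text gives n = 6 per treatment, whereas the labels name 8 kidneys per treatment, and the labels do not say whether each came from a separate animal, so p-values measure the spread between these samples.

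Salt-inducible kinases (SIK1, SIK2 and SIK3) are kinases of the AMPK family that LKB1 activates and that protein kinase A switches off. When active, they phosphorylate CREB-regulated transcription coactivators (CRTC) and class IIa histone deacetylases, which 14-3-3 proteins then hold in the cytoplasm. When SIK activity falls, CRTC proteins enter the nucleus and join CREB, so SIK inhibitors can turn on part of the cAMP program without a hormone. In the kidney, parathyroid hormone raises cAMP in the tubule and induces Cyp27b1, the 1-alpha-hydroxylase that makes active vitamin D.

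The promoters of 4 genes that rose are shown here because the CREB-binding core TGACG, read on either strand as TGACG or CGTCA and set in capitals, was searched in the 250 bases before each RefSeq start (GRCm38.p6, printed 5′ to 3′ along the gene).
Nr4a1, chr15:101266596-101266845, + strand: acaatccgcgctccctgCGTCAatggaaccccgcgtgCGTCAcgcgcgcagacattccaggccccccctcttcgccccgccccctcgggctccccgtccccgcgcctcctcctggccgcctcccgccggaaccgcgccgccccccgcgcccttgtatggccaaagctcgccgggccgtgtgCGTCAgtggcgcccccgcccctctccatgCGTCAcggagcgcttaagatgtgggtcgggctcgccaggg
Nr4a2, chr2:57124004-57124253, - strand: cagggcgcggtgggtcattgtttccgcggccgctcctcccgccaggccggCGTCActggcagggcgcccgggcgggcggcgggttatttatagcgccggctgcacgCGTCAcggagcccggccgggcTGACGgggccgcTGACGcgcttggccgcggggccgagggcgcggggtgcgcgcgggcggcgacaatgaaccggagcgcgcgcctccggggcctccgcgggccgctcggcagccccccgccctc
Dusp1, chr17:26508473-26508722, - strand: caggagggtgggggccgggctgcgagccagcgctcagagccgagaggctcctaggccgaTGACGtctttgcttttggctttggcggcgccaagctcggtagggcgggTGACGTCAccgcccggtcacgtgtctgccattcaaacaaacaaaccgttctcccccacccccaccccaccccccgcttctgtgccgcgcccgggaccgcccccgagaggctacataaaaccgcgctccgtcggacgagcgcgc
Cyp27b1, chr10:127047996-127048245, + strand: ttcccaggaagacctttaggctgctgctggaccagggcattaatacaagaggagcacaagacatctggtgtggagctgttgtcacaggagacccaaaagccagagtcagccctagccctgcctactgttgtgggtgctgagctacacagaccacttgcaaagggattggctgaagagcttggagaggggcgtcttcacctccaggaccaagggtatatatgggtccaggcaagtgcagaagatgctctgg
The core occurred 4 times before Nr4a1, with first bases 233, 213, 69 and 40 bases before the start, and 4 times before Nr4a2, at 200, 144, 123 and 111 bases. It occurred 3 times before Dusp1, at 191, 143 and 140 bases, where the last pair overlap and form the full palindrome TGACGTCA. No copy lay in the window before Cyp27b1. A start window was matched for 60 of the 72 called genes that were higher by at least 1 in log2 units, and 43.3% of these windows held the core, against 26.1% of the 10996 matched genes tested and 17.9% of all 27025 windows in the reference table. The full palindrome was in 6.67% of the 60 windows and 2.56% of the matched genes tested. The 30 matched windows of genes lower by at least 1 held the core in 3 (10%) and the palindrome in none. Among all calls of any size, the core was in 31.1% of 695 matched windows of genes called higher. It was in 27.2% of 1312 windows of genes called lower. The palindrome was in 3.17% and 2.82% of these windows. A CArG box, the motif of the serum response factor, was in 2 of the 60 windows (3.33%) and 1.15% of the matched genes tested. It was also in 1 of the 30 windows of genes lower by at least 1 (3.33%). These are counts of letters in windows, with no test and no measure of binding.

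The 16 libraries resembled each other in yield and makeup. Between 16362 and 16866 entries were above 0 per library, the top 10 genes took up 12% to 15.3% of all FPKM, and pairwise correlations of log2 values across genes ran from 0.941 to 0.977. Depth, estimated from the steps of low FPKM values, was 6090000 to 7040000 fragments per library with no large gap between the groups (medians 6720000 and 6755000). The nephron was well represented in all 16 libraries, with the proximal tubule phosphate carrier Slc34a1 between 1000.4 and 2154 FPKM and the thick ascending limb protein Umod between 724 and 1515. Xist, transcribed from the inactive X chromosome, lay between 76.3 and 114 FPKM, while Ddx3y and Uty, both Y-linked, did not exceed 0.1 and 0.03 FPKM, which goes against the label male in all 16 libraries alike. Urothelium markers, which mark the lining of the renal pelvis, varied widely within both groups, with summed levels of 2.83 to 35.4 FPKM in vehicle and 1.96 to 39.6 FPKM in YKL-05-099 libraries. Results were therefore also computed without the 4 libraries highest in these markers (YKL-05-099 replicate 2, vehicle replicate 7 and replicates 1 and 5 of PTH).

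YKL-05-099 changed a broad set of renal transcripts by 3 hours, and the genes with the largest increases included immediate-early and cAMP-responsive genes such as Nr4a1, Nr4a2 and Fos. At an adjusted p below 0.05, 2481 genes were called (17.7% of those tested), of which 876 were higher (6.26%) and 1605 lower (11.5%). Most changes were small, with 82.8% of the calls under 1.5-fold, and the median log2 fold change was 0.37 among genes called higher and -0.35 among genes called lower. At a log2 fold change of at least 1, the balance turned, with 72 genes higher (0.515%) and 42 lower (0.3%). In 215 genes all 8 YKL-05-099 libraries lay above all 8 vehicle libraries (1.54% of genes tested) and in 448 genes all lay below (3.2%). The excess of lower calls depended on scaling. The median log2 fold change over all genes tested was -0.05, and after median-ratio scaling, which moved it to -0.0024, the calls were 1151 higher and 1171 lower (49.6% higher, against 35.3% as deposited). Quantile normalization gave 1156 higher and 1394 lower (45.3% higher). Protein-coding genes made up nearly all calls, 2406 of 13089 tested (18.4%), while 55 of 599 long noncoding RNAs (9.18%), 2 of 63 snoRNAs and 1 of 78 miRNAs were called. The called small RNAs Mir29c, Snora33 and Snord72 were at 0 in several libraries of a treatment group, and each lost its call when any of several single libraries was left out.

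YKL-05-099 replicate 1 was the weakest responder. For each treated library, genes called with a log2 fold change of at least 1 without that library were taken, and the library's own deviation from the vehicle mean was divided by that fold change. The median of this share was 0.356 for replicate 1 (137 genes) and 0.877 to 1.18 for replicates 2 to 8. The gap was wider among genes that rose (0.319, against 0.9 to 1.2 in the others) than among genes that fell (0.507, against 0.639 to 1.24, the lowest being replicate 8). Replicate 1 still moved in the common direction in 85.4% of its genes, against 91.5% to 99.0% for the others. Of the 82 genes that rose by at least 1 without it, it was the lowest treated library in 69 and within the vehicle range in 46. Of the 55 that fell it was the highest treated library in 28. These counts were made for replicate 1 only, so replicates 2 to 8 give no matching values. Its estimated depth and number of detected genes lay within the ranges given above.

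**Figure D1:**
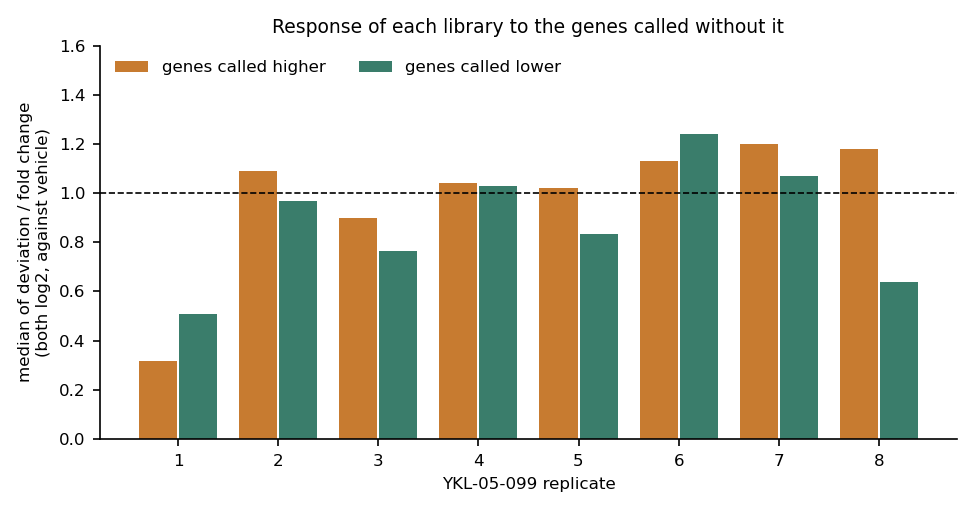
Median share of the fold change shown by each of the 8 YKL-05-099 libraries (x axis), computed on genes called with a log2 fold change of at least 1 without that library; orange bars, genes called higher; green bars, genes called lower; the dashed line at 1 marks a library as strong as the other 7. Replicate 1 reached 0.319 for higher and 0.507 for lower genes.

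Without replicate 1, 838 genes were called higher (5.99%) and 1693 lower (12.1%) of 13983 tested, or 2531 in all (18.1%), and 82 (0.586%) and 55 (0.393%) passed a log2 fold change of 1. Of the calls in the full comparison, 768 higher and 1449 lower genes were called again, 70 of the 72 and 40 of the 42 at the larger fold among them. Leaving the library out removed the calls of 108 higher and 156 lower genes and added 70 higher and 244 lower ones, and it added 12 genes above and 15 below a log2 fold change of 1.

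The NR4A orphan nuclear receptors, immediate-early transcription factors that cAMP induces through CREB, were among the genes with the largest increases. Nr4a1 ranged from 0.23 to 1.48 FPKM in vehicle kidneys (median 1.14) and from 12.9 to 63.0 FPKM in YKL-05-099 kidneys (median 50.5). Every treated library was above every vehicle library, and the weakest, replicate 1, was already several times the highest vehicle value. The log2 fold change was 5.39 ± 0.34 (SE; 41.9-fold; adjusted p = 1.2e-10) and 5.63 without replicate 1. Nr4a2 rose from 0.16 to 0.88 FPKM (median 0.355) to 2.1 to 13.8 FPKM (median 7.75), a log2 fold change of 3.90 (adjusted p = 4e-08), again with no overlap. Nr4a3 was at 0 in 4 vehicle libraries and at most 0.52 FPKM in the others, and lay between 1.27 and 4.38 FPKM in treated libraries (log2 fold change 3.52, adjusted p = 1.2e-07). Because vehicle levels were close to the added 0.1 FPKM, the fold of Nr4a3 depends on that constant.

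Other immediate-early genes rose with them. Of 10 tested AP-1 factors, which bind DNA as FOS, JUN, ATF and MAF dimers, 8 were called higher and none lower. The share called higher over all genes tested was 6.26%. The median log2 fold change of the AP-1 factors was 1.61, beside -0.05 over all genes tested. Fos ranged from 0.07 to 1.01 FPKM in vehicle (median 0.34) and from 0.54 to 8.89 FPKM with YKL-05-099 (median 6.68), and only replicate 1, at 0.54 FPKM, fell into the vehicle range. Its log2 fold change was 3.62 ± 0.49 (adjusted p = 2.9e-05), or 4.04 without replicate 1. Atf3, Fosb, Fosl2, Maff and Jun rose by 2.78, 2.55, 1.63, 1.6 and 1.39 on the log2 scale, and in each of Fosb, Fosl2, Maff and Jun 7 of 8 treated libraries were above all vehicle libraries. The small MAF partners other than Maff gave no call.

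Serum-response genes and feedback genes of the MAP kinase pathway moved in the same direction. Of 12 tested EGR, SRF and IER genes, 8 rose and none fell (median log2 fold change 0.75), and of 10 dual-specificity MAP kinase phosphatases 6 rose and none fell (median 0.52). For comparison, 6.26% of all genes tested were called higher. Egr1, a zinc finger factor of the growth response, was at 1.42 to 4.36 FPKM in vehicle (median 2.73) and 4.38 to 29.1 FPKM in treated kidneys (median 23.4). The groups only just separated, since the lowest treated library, replicate 1, was next to the highest vehicle value. Its log2 fold change was 2.84 ± 0.37 (adjusted p = 2.1e-05), or 3.14 without replicate 1. Dusp1, which dephosphorylates p38, JNK and ERK, rose from 15.3 to 37.1 FPKM (median 24.3) to 43.8 to 181 FPKM (median 152), without overlap (log2 fold change 2.45, 5.45-fold, adjusted p = 2.1e-05). Dusp5 and Dusp8 were also higher in all 8 treated than in all 8 vehicle libraries, by 1.88 and 1.41. The serum response factor gene itself, Srf, rose by 0.59 with no overlap, Ier3 by 1.41 and Btg2 by 1.94. Among 13 Krüppel-like factors, zinc finger regulators of metabolism and differentiation, 5 rose modestly, from 0.41 for Klf6 to 0.54 for Klf13.

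**Figure D2:**
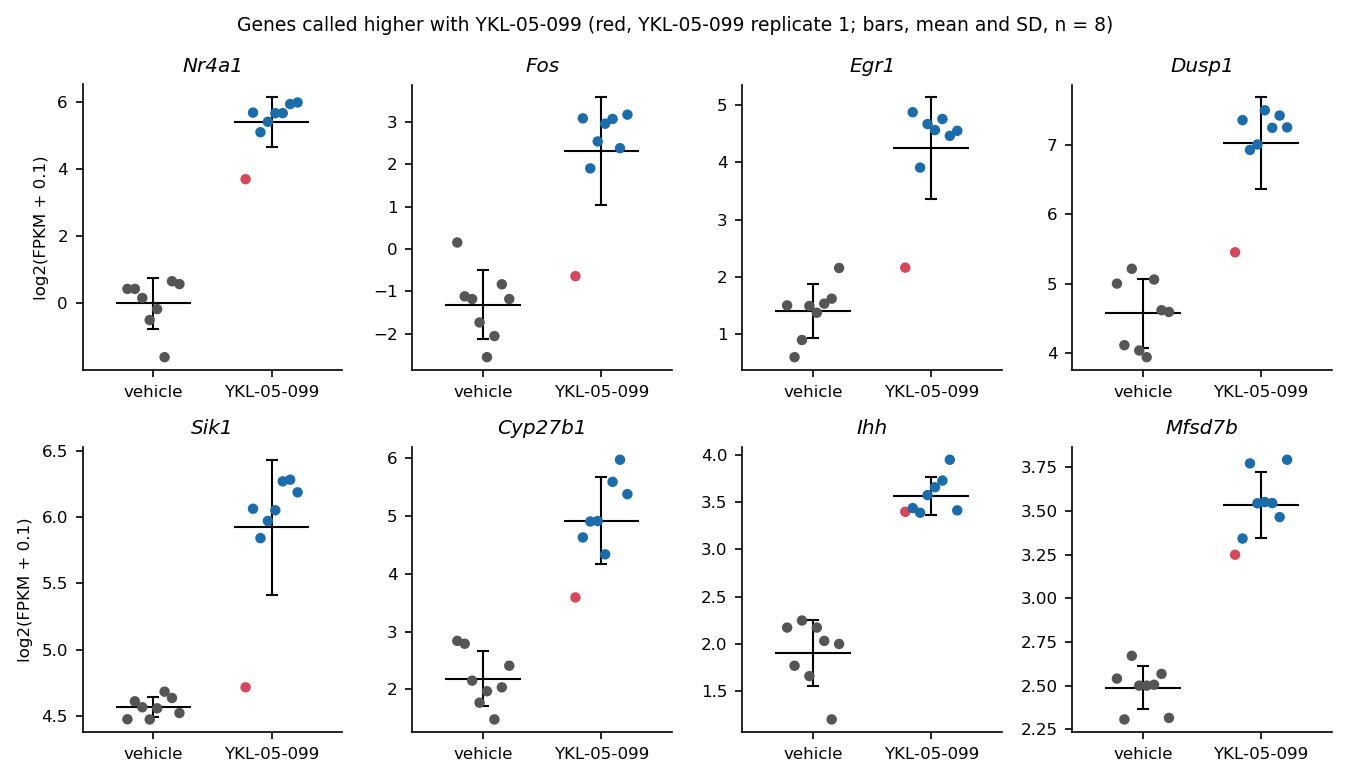
Levels of 8 genes called higher, as log2(FPKM + 0.1), in each of 8 vehicle (grey) and 8 YKL-05-099 (blue) libraries, with replicate 1 of YKL-05-099 in red; black bars give the mean and SD. Replicate 1 sits far below the other treated libraries for Nr4a1, Fos, Egr1, Dusp1 and Sik1 and among them for Ihh.

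Further large increases joined stress, signalling and vascular genes. Plk3, a stress-responsive polo-like kinase, rose from 2.48 to 11.9 FPKM (median 5.21) to 15.5 to 99.0 FPKM (median 56.3), a log2 fold change of 3.28 (9.73-fold, adjusted p = 7.2e-07). Rcan1, a calcineurin inhibitor, was at 21.1 to 51.8 FPKM in vehicle and 78.7 to 239 FPKM in treated kidneys, without overlap (2.24, adjusted p = 4.1e-08). Apold1, an endothelial early gene, rose by 2.53 (adjusted p = 3.6e-07) and Csrnp1, a nuclear factor that AXIN1 induces, by 2.06, the latter overlapping with vehicle only in replicate 1. Mchr1, the melanin-concentrating hormone receptor, rose by 2.66, from at most 0.97 FPKM in vehicle to 3.01 to 5.64 FPKM in replicates 2 to 8, with 0.96 FPKM in replicate 1. Cyr61, a matricellular protein, rose by 1.78 with no overlap. Sap25, a subunit of SIN3 corepressor complexes, was listed at 0 in all 8 vehicle libraries and between 0.92 and 6.52 FPKM in 7 treated libraries, with 0 in replicate 4. Moap1, a BAX-binding protein, was likewise low in vehicle (0 to 1.49 FPKM, median 0) and reached 3.85 FPKM with 0 in treated replicate 6. For both genes single libraries at 0 make any fold unreliable.

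The smallest p-values also fell to genes whose change was moderate but very even. Mfsd7b, which encodes the heme exporter FLVCR1, rose from 4.85 to 6.27 FPKM (median 5.57) to 9.41 to 13.8 FPKM (median 11.6). Its log2 fold change was 1.04 ± 0.07 (adjusted p = 3.7e-10). Indian hedgehog, Ihh, was at 2.2 to 4.65 FPKM in vehicle (median 3.95) and 10.4 to 15.3 FPKM in treated kidneys (median 11.3), a log2 fold change of 1.66 ± 0.13 (adjusted p = 3.3e-09). For both genes the groups were wide apart and replicate 1 was close to the other treated libraries, unlike for the immediate-early genes. Dnajb4, an HSP40 cochaperone, rose by 0.99 with no overlap (adjusted p = 5e-07). Of all 16 tested heat shock genes it alone rose, and 2 fell, beside 6.26% higher and 11.5% lower over all genes tested.

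The targets of cAMP and CREB followed. Of 19 tested members of that list 13 rose and none fell, with a median log2 fold change of 1.21, and 9 of them were higher in all treated than in all vehicle libraries (1.54% over all genes tested). The share called higher over all genes tested was 6.26%. The cAMP and CREB list contains the NR4A genes, Fos and Dusp1 described above. Crem, whose ICER product represses cAMP responses, rose from 6.03 to 9.0 FPKM (median 7.69) to 9.51 to 19.7 FPKM (median 13.2). The change was 0.80 on the log2 scale (adjusted p = 0.00025) and all treated libraries were above all vehicle libraries. Per1, a clock repressor with CREB sites, rose by 1.39 with no overlap, Rgs2, a brake on G protein signalling, by 0.95 and Adamts1, a secreted protease, by 0.87. Ptgs2, the inducible cyclooxygenase, rose by 1.93 from low levels (at most 0.95 FPKM in vehicle and 2.33 FPKM in treated libraries). Rasd1, a small G protein, rose by 2.03, from 1.99 to 4.73 FPKM to 4.85 to 22 FPKM.

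Within the SIK pathway itself, Sik1, whose gene is a CREB target, rose while its relatives gave no call. Sik1 (chr17:31844248-31855804) was confined to 22.1 to 25.6 FPKM in vehicle (median 23.5) and reached 57.2 to 77.7 FPKM in treated replicates 2 to 8, with 26.2 FPKM in replicate 1. Thus 7 libraries stood far above vehicle and replicate 1 was just outside its range. The log2 fold change was 1.36 ± 0.20 (2.56-fold, adjusted p = 9.1e-05), or 1.53 without replicate 1. Sik2 was 0.26 higher on the log2 scale (95% interval -0.08 to 0.59, adjusted p = 0.313) and Sik3 0.21 higher (-0.01 to 0.42, adjusted p = 0.193), neither a call. The coactivators Crtc1 (0.28, interval 0.02 to 0.54, adjusted p = 0.148), Crtc2 (-0.10, -0.23 to 0.04) and Crtc3 (-0.10, -0.36 to 0.16) were not called, nor were Creb1 (-0.06, adjusted p = 0.651) and the deacetylase genes Hdac4 (0.08), Hdac5 (0.05) and Hdac7 (-0.17). Crtc1 passed the threshold in the fit of the 2 groups alone (adjusted p = 0.0497), but in no other setting tried, and Hdac9, at 0.1 to 0.5 FPKM, was too low to be tested. Of the 20 tested members of the list, the other calls were Mef2d, a transcription factor that class IIa deacetylases repress, which rose by 0.53 (adjusted p = 0.00034), and Ywhaz, a 14-3-3 protein, which rose by 0.32 with no overlap (adjusted p = 0.0014). These are mRNA levels, and kinase activity was not measured here.

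Vitamin D metabolism changed at its key enzymes. Cyp27b1 (chr10:127048246-127054884) was at 2.69 to 7.05 FPKM in vehicle kidneys, the 8 values being 7.05, 6.81, 4.34, 3.31, 3.81, 2.69, 4.0 and 5.21 for replicates 1 to 8. In YKL-05-099 kidneys the values were 11.9, 24.6, 29.8, 29.95, 20.1, 48.0, 62.5 and 41.4 FPKM. The groups did not overlap, and the treated group spanned a wider range, from replicate 1 at the bottom to replicate 7 at the top. The log2 fold change was 2.73 ± 0.30 (6.64-fold, adjusted p = 1.9e-06), or 2.92 without replicate 1, and stayed between 2.58 and 2.92 when any library was left out. Cyp24a1, whose 24-hydroxylase inactivates vitamin D, was very variable in vehicle (20.3 to 172 FPKM, median 38.9) and lay between 10.2 and 30.2 FPKM in treated kidneys (median 19.2), where 5 of 8 libraries were below all vehicle libraries. Its fall by 1.23 on the log2 scale (SE 0.40, adjusted p = 0.0331) was a fragile call. The call was removed by leaving out vehicle replicate 3, 6 or 7, or replicate 4, 7 or 8 of the YKL-05-099 group (adjusted p up to 0.0738, with log2 fold changes of -1.39 to -0.95 over all libraries left out), as did leaving out the 4 libraries highest in urothelium markers. The vitamin D receptor Vdr (0.01, interval -0.16 to 0.17) and the PTH receptor Pth1r (0.01, -0.10 to 0.12) were close to 0 change. In all, 3 of 15 tested vitamin D genes rose and 1 fell, beside 6.26% higher and 11.5% lower over all genes tested. Dhcr7, which diverts the vitamin D precursor to cholesterol, rose by 0.57 with no overlap.

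Of 12 tested phosphate transport genes, 6 rose and 2 fell, beside 6.26% higher and 11.5% lower over all genes tested. All of these changes were below 1 on the log2 scale. Slc34a1, the main brush border phosphate carrier of the proximal tubule, had a vehicle median of 1194 FPKM (highest 1297) and a treated median of 1503 FPKM (1352 to 2154), with no overlap. This was a log2 fold change of 0.42 ± 0.09 (1.34-fold, adjusted p = 0.0033) and, at 408 FPKM, the largest gain in mean FPKM of any called gene. Slc20a2, a ubiquitous sodium-phosphate carrier, rose by 0.32 and Fgfr4, an FGF23 receptor, by 0.36. Slc9a3r2, a PDZ scaffold of brush border transporters, fell by 0.55 from 25.4 to 38.6 FPKM to 19.2 to 29.5 FPKM (adjusted p = 0.00084). Of 15 tested calcium and magnesium transport genes, none rose and 3 fell, beside 11.5% lower over all genes tested, and the count was 2 without replicate 1 and 1 after median-ratio scaling or without the 4 libraries highest in urothelium markers. Among the 3 was the distal magnesium channel Trpm6, which fell by 0.45. S100g, the vitamin D dependent calbindin-9k, fell by 0.41 (adjusted p = 0.0278), a call that leaving out vehicle replicate 2 or 6 or YKL-05-099 replicate 1, 2 or 3 removed (adjusted p = 0.0507 without replicate 1 of YKL-05-099).

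Metabolic genes moved in opposite directions by pathway. Cholesterol synthesis and its regulator rose, with 14 of 21 tested sterol and SREBP2 genes higher and none lower (median log2 fold change 0.37). Shares over all genes tested were 6.26% higher and 11.5% lower. Srebf2, the transcription factor of the pathway, was at 7.94 to 11.6 FPKM in vehicle (median 10.1) and 10.8 to 18.3 FPKM in treated kidneys (median 14.6), with 7 of 8 treated libraries above every vehicle library (0.54, adjusted p = 0.0012). Fdps, farnesyl diphosphate synthase, rose by 0.56. Genes of fatty acid oxidation and PPAR-alpha fell, 10 of 19 tested lower and none higher (median -0.30), though 7 were lower without replicate 1 and 7 after median-ratio scaling. Acadl, the long-chain acyl-CoA dehydrogenase, was at 232 to 274 FPKM in vehicle (median 260.0) and 184 to 214 FPKM in treated kidneys (median 204). The groups were apart by a small fold, a fall by 0.35 on the log2 scale (adjusted p = 0.00022). Acadvl fell by 0.30 with no overlap and Angptl4, a PPAR target that inhibits lipoprotein lipase, by 0.71.

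Of 18 tested amino acid transport genes 8 rose, none fell and the rest were not called (median log2 fold change 0.28), beside 6.26% higher over all genes tested. Slc7a8, a basolateral neutral amino acid exchanger, rose from 62.8 to 72.8 FPKM (median 71.0) to 90.3 to 116 FPKM (median 96.7), with no overlap (0.54, adjusted p = 4.2e-05). Slc7a7, an exchanger of cationic amino acids, rose by 0.52 and their shared heavy chain Slc3a2 by 0.46. Of 16 tested insulin and IGF genes 3 rose and 1 fell (median 0.07), beside 6.26% higher and 11.5% lower over all genes tested. The rest were not called. Irs2, an insulin receptor substrate, rose by 1.25 and Ddit4, an mTORC1 inhibitor that stress and glucocorticoids induce, by 1.73, both with no overlap. Foxo3, a transcription factor that insulin holds out of the nucleus, rose by 1.16 and Lpin1, a phosphatidate phosphatase, by 1.19. The list of mTORC1, autophagy and FoxO genes as a whole was mixed, with 4 of 16 higher and 3 lower, and 8430408G22Rik (RefSeq symbol Depp1), induced by fasting and FoxO, fell by 1.43 from 7.0 to 19.2 FPKM to 2.75 to 9.24 FPKM (adjusted p = 0.00069). G6pc, the last enzyme of glucose release, rose by 0.39 (adjusted p = 0.0334), a call that did not survive leaving out vehicle replicate 3, 6 or 8 or YKL-05-099 replicate 2, 3, 4, 6 or 7, while without replicate 1 it rose by 0.48. None of the 15 tested glycolysis genes rose and 1 fell.

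Glucocorticoid-responsive genes were mostly higher, 12 of 16 tested, with 1 lower, beside 6.26% higher and 11.5% lower over all genes tested. Their median log2 fold change was 0.76. Several of these genes are also on the cAMP and stress lists, so the lists are not independent. Tsc22d3, the glucocorticoid-induced leucine zipper, was at 18.9 to 40.7 FPKM in vehicle (median 25.1) and 37.9 to 66.9 FPKM in treated kidneys (median 56.4), rising by 1.05 (adjusted p = 1.9e-05). Its groups overlapped only through replicate 1. Cebpd and Cebpb, transcription factors of the acute phase, rose by 1.79 and 2.02, and Errfi1, a feedback inhibitor of the EGF receptor, by 0.68 from an already high median of 184 FPKM. Corticosterone was not measured here.

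Of 18 tested p53 targets 8 rose and none fell (median 0.31), beside 6.26% higher and 11.5% lower over all genes tested. The members that moved most, Plk3, Gadd45g, Btg2 and Cdkn1a, are general stress genes as well. Gadd45g, a growth arrest gene, rose from 27.4 to 97.8 FPKM to 63.9 to 262 FPKM (1.96, adjusted p = 4.6e-05) and Cdkn1a, the p21 cell cycle inhibitor, by 1.08. Core clock genes as a group gave 4 higher and 1 lower of 21, against the same shares over all genes. Of 17 tested NF-kB and acute inflammation genes 5 rose and 1 fell, among them Tnfaip3, a deubiquitinase that restrains NF-kB, which rose by 0.95 with no overlap. The unfolded protein response had 1 call among 18 genes, lower, and hypoxia targets 2 among 16, both lower. These counts are below or near the 11.5% called lower over all genes tested.

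Growth factor genes of the tubule changed singly. Fgf18 rose by 1.29, from 0.27 to 1.54 FPKM to 0.83 to 5.74 FPKM, while Fgf9, a ligand with roles in nephron progenitors, fell by 0.88, from 4.85 to 6.78 FPKM to 1.93 to 4.48 FPKM, with no overlap (adjusted p = 6.8e-05). Bmp7, a tubular BMP ligand, rose by 0.40 with no overlap. Erbb3, a receptor for neuregulins, fell by 0.71 from 13.7 to 20.4 FPKM to 7.56 to 12.2 FPKM, with no overlap (adjusted p = 0.00066). Of 16 tested histone genes 5 were higher and 1 lower, beside 6.26% higher and 11.5% lower over all genes tested. Among linker histones Hist1h1c rose by 0.85 (adjusted p = 0.0002) and Hist1h1e by 0.89, while H1f0, at a log2 fold change of 0.0, was not called. Hist1h1d, higher by 0.96, lost its call when vehicle replicate 2, 3, 4 or 8 or YKL-05-099 replicate 2, 3, 4, 5 or 8 was left out.

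**Figure D3:**
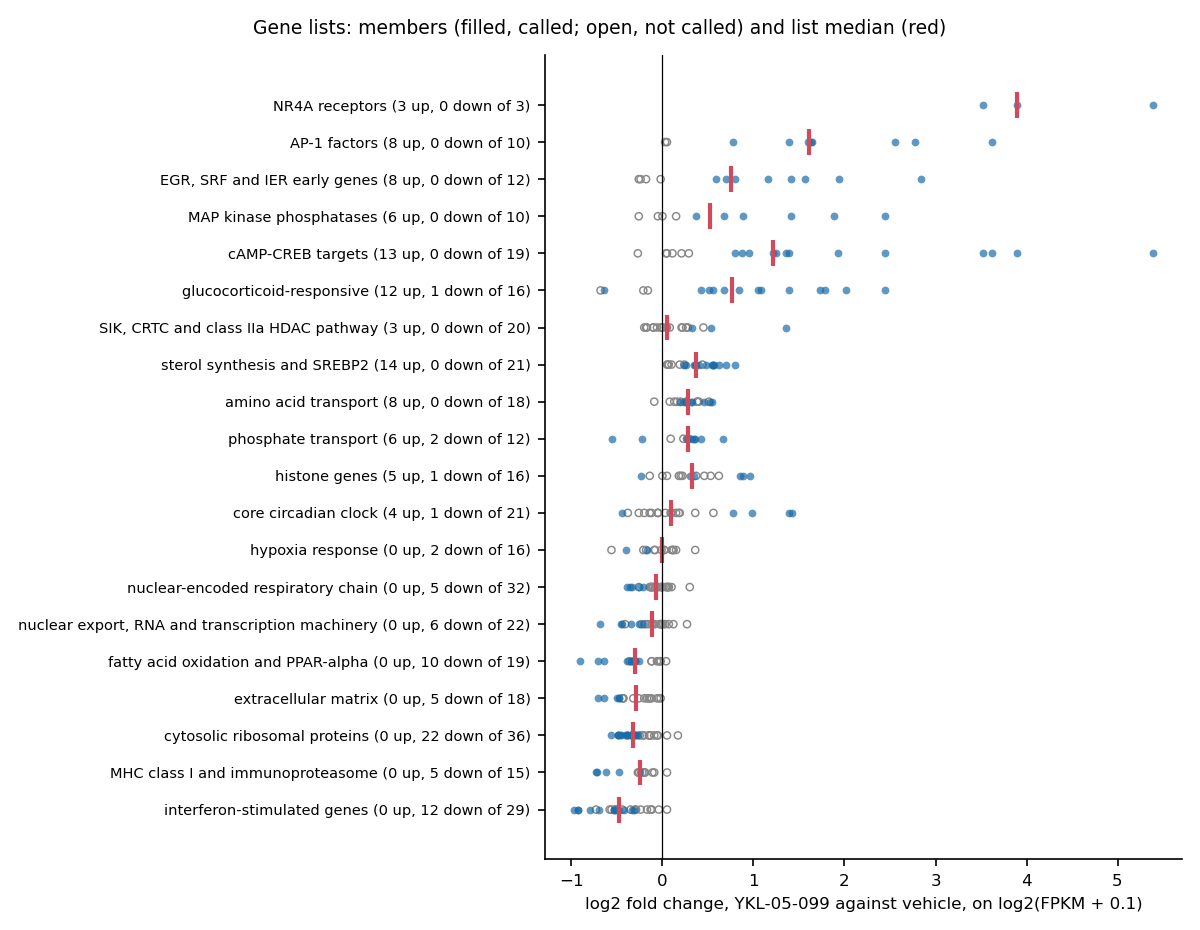
Log2 fold change of YKL-05-099 against vehicle (x axis) for each tested member of 20 gene lists; filled points passed an adjusted p of 0.05, open points did not, and red bars are list medians. Medians run from 3.90 for the NR4A receptors to -0.48 for interferon-stimulated genes, beside -0.05 over all genes tested.

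Hmox1, heme oxygenase 1, fell by more than any other called gene of at least 1 FPKM apart from the small RNAs Mir29c and Snora33. Its values in vehicle replicates 1 to 8 were 95.8, 83.0, 75.7, 115, 65.3, 27.0, 238 and 36.95 FPKM, and in YKL-05-099 replicates 1 to 8 they were 23.9, 16.1, 15.0, 10.9, 14.1, 12.5, 12.6 and 12.3 FPKM. Vehicle libraries varied widely while 7 of the treated libraries clustered closely, and the groups did not overlap. The log2 fold change was -2.40 ± 0.33 (adjusted p = 4.2e-05), and between -2.61 and -2.16 when any library was left out. Of 17 tested NRF2 targets, the group to which Hmox1 belongs, none rose and 2 fell, near the 11.5% called lower over all genes tested. Mfsd7b, which exports the heme that Hmox1 degrades, moved the other way as described.

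Other strong falls included those of single genes of myeloid cells, vessels and matrix turnover. Mmp13, a collagenase, fell from 0.68 to 1.51 FPKM (median 1.05) to 0.06 to 0.49 FPKM (median 0.185), a log2 fold change of -1.97 (adjusted p = 4.3e-05). Ccr2, the monocyte chemokine receptor, was at 0.93 to 2.0 FPKM in vehicle and 0.3 to 0.71 FPKM in treated kidneys (-1.52, adjusted p = 2.5e-06). Both had no overlap. Of 13 tested extracellular proteases 1 was higher and 2, Mmp13 among them, were lower. After median-ratio scaling 2 were higher and 1 lower. Over all genes tested, 6.26% were called higher and 11.5% lower. Lilrb3, an inhibitory receptor of myeloid cells, fell by 1.46 with no overlap, and Rnase6, a leukocyte ribonuclease, by 1.46 with 7 of 8 treated libraries below all vehicle libraries and replicate 5 at 1.5 FPKM above them. Sox18, an endothelial transcription factor, fell by 1.34, from 3.3 to 7.37 FPKM to 1.46 to 2.53 FPKM in replicates 2 to 8, with 4.11 FPKM in replicate 1. Because whole kidneys were sequenced, fewer cells of a type and less RNA per cell cannot be told apart.

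Interferon-stimulated genes were lower as a group. Of 29 tested, 12 fell and none rose, with a median log2 fold change of -0.48, against 11.5% of all tested genes called lower and a median of -0.05. The count was 13 without replicate 1, 10 after median-ratio scaling and 10 without the 4 libraries highest in urothelium markers. Irf1, a transcription factor of interferon responses, was at 9.76 to 21.1 FPKM in vehicle (median 13.1) and 4.34 to 8.8 FPKM in treated kidneys (median 7.29), with no overlap (-0.97, adjusted p = 0.00016). Ifit3, an antiviral RNA-response protein, fell from 21.7 to 43.4 FPKM to 6.98 to 24.6 FPKM (-0.93, adjusted p = 0.0034), and Rsad2, viperin, by 0.93. Gbp4 and Gvin1, interferon-induced GTPases, fell by 1.25 and 1.5 with no overlap, and Casp1, the inflammasome protease, by 1.27. MHC class I genes and the immunoproteasome gave 5 lower and none higher of 15, including H2-Q4, which fell by 0.48 with no overlap, and Psmb8, by 0.62. For this list 4 were lower without replicate 1, 3 after median-ratio scaling and 3 without the 4 libraries highest in urothelium markers.

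Leukocyte markers moved with these genes. Of 12 tested pan-leukocyte markers 4 fell and none rose (median -0.45), beside 11.5% called lower over all genes tested. Ptprc, which encodes CD45, was at 2.08 to 3.31 FPKM in vehicle (median 2.41) and 1.18 to 2.32 FPKM in treated kidneys (median 1.38), a fall by 0.75 (adjusted p = 0.00097), and Coro1a, an actin regulator of leukocytes, fell by 0.74 with no overlap. The mean log2 level of the 12 markers, taken relative to the vehicle median, lay between -0.26 and 0.29 in vehicle and between -0.78 and -0.22 in treated libraries, while their summed FPKM overlapped widely (353 to 439 and 329 to 443). None of the 12 markers was at 0 in all libraries. Of 9 resident macrophage markers none was called lower, and their median log2 fold change was -0.14 (-0.28 without replicate 1), with values of -0.42 for C1qc and -0.41 for C1qa, both complement subunits. Cd81, a tetraspanin that many other cells express too, was the 1 call, higher by 0.37 with no overlap. The summed level of the 9 markers, 159 to 187 FPKM in vehicle and 184 to 218 FPKM in treated kidneys, is mostly that of Cd81 (mean 121 and 156 FPKM), and their mean log2 level overlapped between the groups (-0.36 to 0.28 and -0.53 to 0.17). The difference from the pan-leukocyte list was not tested. Monocyte and dendritic cell markers gave 1 lower of 6 (Ccr2), with summed levels of 10.5 to 17.0 and 7.5 to 13.9 FPKM, and the 3 tested T and NK cell markers gave no call. The part of leukocyte content in the interferon and MHC results was not tested.

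**Figure D4:**
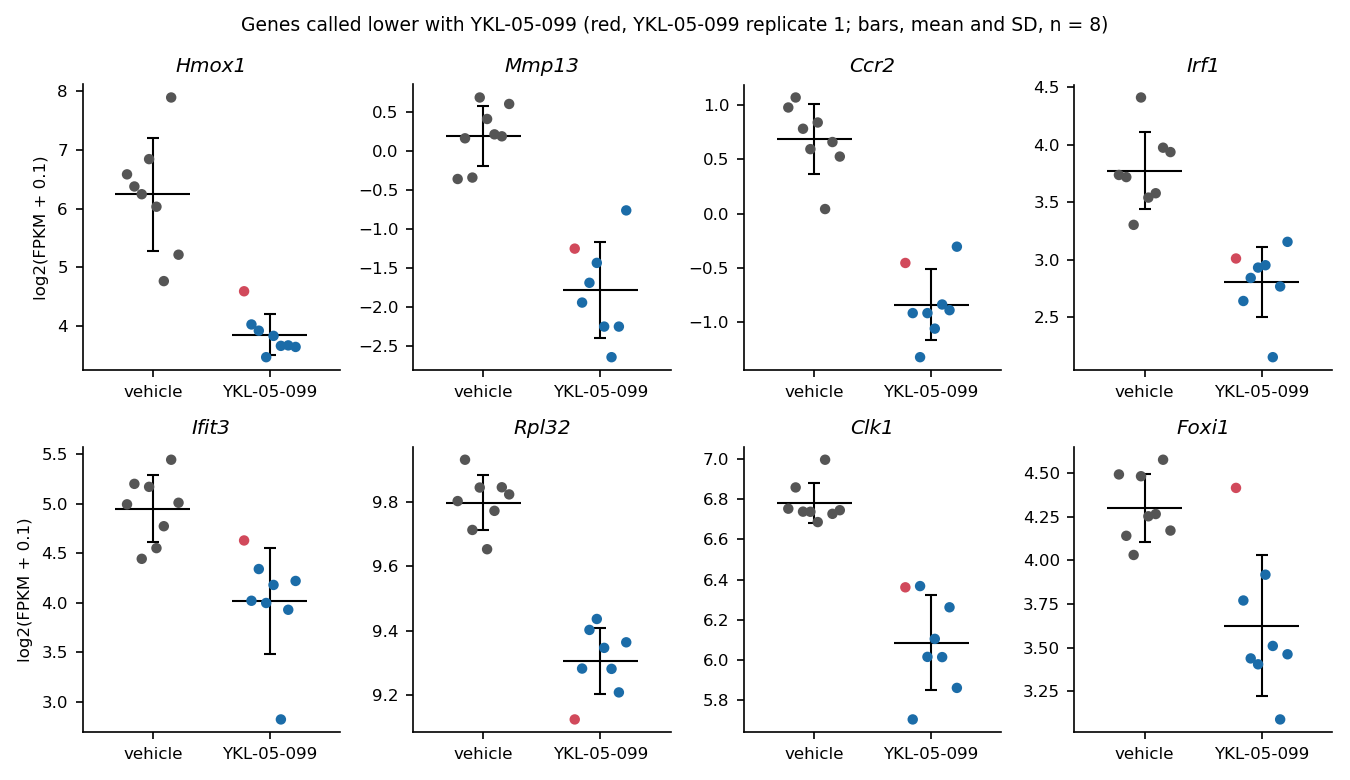
Levels of 8 genes called lower, as log2(FPKM + 0.1), in each of 8 vehicle (grey) and 8 YKL-05-099 (blue) libraries, with replicate 1 of YKL-05-099 in red; black bars give the mean and SD. The groups are apart for Hmox1, Mmp13, Ccr2, Irf1, Rpl32 and Clk1, and replicate 1 lies in the vehicle range for Ifit3 and Foxi1.

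Ribosomal protein genes formed a uniform lower group. Of 36 tested, 22 fell and none rose (median -0.32), and in 19 of them all 8 treated libraries were below all 8 vehicle libraries (3.2% over all genes tested). The count was 22 without replicate 1 and 20 after median-ratio scaling. Rpl32, of the large subunit, was at 805 to 977 FPKM in vehicle (median 900.0) and 557 to 693 FPKM in treated kidneys (median 636), a fall by 0.49 (adjusted p = 0.002). Rpl23 and Rpl4 fell by 0.56 and 0.39, both with no overlap. Transcript length was known for part of the genes tested. A single length was matched for 10506 genes. Their shortest quintile had a median log2 fold change of -0.08, and the longest (from 4604 bases) of -0.02. Ribosomal genes were not set against other genes of matching length, so the part of length in the ribosomal result was not tested. Of 32 tested nuclear genes of the respiratory chain 5 fell and none rose (median -0.07), near the 11.5% and -0.05 over all genes tested. Without replicate 1 or after median-ratio scaling, 2 fell and 1 rose. After quantile normalization 5 fell and 3 rose.

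Some splicing regulators fell. Of 22 tested genes of transcription and RNA machinery none rose and 6 fell (median -0.11), beside 11.5% called lower over all genes tested. The count was 5 without replicate 1, 4 after median-ratio scaling and 4 without the 4 libraries highest in urothelium markers. Clk1, a kinase of SR splicing factors whose own mRNA is regulated by intron retention, was at 103 to 127 FPKM in vehicle (median 107) and 52.1 to 82.5 FPKM in treated kidneys (median 66.7). The groups were well apart, and the log2 fold change was -0.69 ± 0.10 (adjusted p = 9.5e-05). Its relative Clk4 fell by 0.44, the splicing factor Srsf5 by 0.45 with no overlap and the nuclear RNA Malat1 by 0.53. The splicing factors Srsf2 (-0.11), Srsf6 (-0.23) and Srsf7 (-0.16) were not called. The nuclear RNAs Neat1 (0.14) and Kcnq1ot1 (-0.25) gave no call either. Reads in introns were not separated here.

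Genes of stroma, vessels and matrix tended lower, but these calls moved with the libraries used. Of 18 tested extracellular matrix genes 5 fell and none rose (median -0.29), with 8 lower without replicate 1 and 0 without the 4 libraries highest in urothelium markers. For this and the next lists, the share called lower over all genes tested was 11.5%. Nid1, a basement membrane linker, fell by 0.64, Sparc by 0.48 and Igfbp3, an IGF carrier, by 0.61, and all 3 calls were lost without those 4 libraries. Interstitial fibroblast markers gave 2 lower of 8 (5 without replicate 1), endothelial markers 3 lower of 11 (5 without replicate 1 and 1 without the 4 libraries), with none higher in either list. Pdgfra, a fibroblast receptor, fell by 0.94 from 4.7 to 12.5 FPKM to 1.11 to 8.14 FPKM, its pericyte counterpart Pdgfrb by 0.61 and Tek, the endothelial angiopoietin receptor, by 0.62. In fibroblast, endothelial and pericyte lists replicate 1 had the highest mean marker level of the treated libraries (0.34, 0.23 and 0.20 above the vehicle median on the log2 scale). Summed levels overlapped between the groups for fibroblast markers (73.3 to 140.0 FPKM in vehicle and 47.6 to 123 FPKM treated) and endothelial markers (191 to 402 and 132 to 294 FPKM). The part of sampled stroma and pelvis in these results was not tested.

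**Figure D5:**
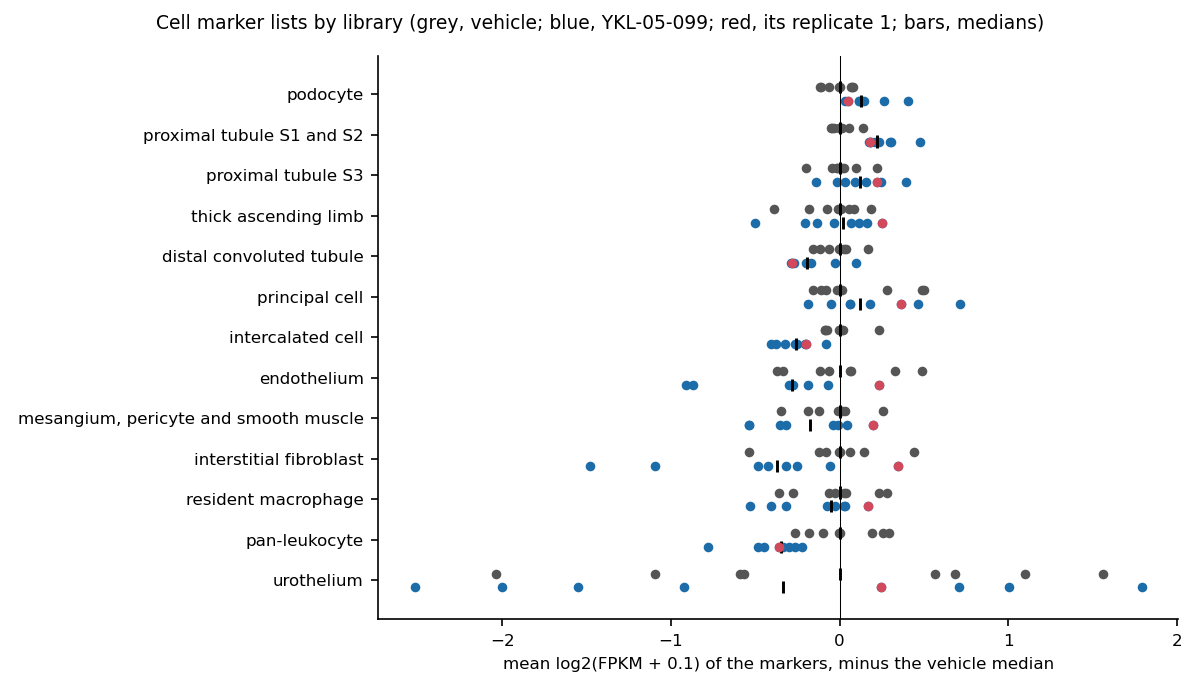
Mean log2(FPKM + 0.1) of the markers of 13 cell types in each library, minus the median of the vehicle libraries (x axis); grey, 8 vehicle; blue, 8 YKL-05-099; red, YKL-05-099 replicate 1; black bars, group medians. Treated libraries lie higher for proximal tubule S1 and S2 (0.17 to 0.48) and lower for intercalated cell and pan-leukocyte markers, and urothelium varies by more than 1 in both directions.

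Among the epithelial segments, changes were small. The shares to set beside these counts are 6.26% called higher and 11.5% called lower over all genes tested. Markers of the S1 and S2 proximal tubule gave 2 higher of 10, Slc34a1 and Gatm, which makes the creatine precursor and rose by 0.48, and their mean log2 level was 0.17 to 0.48 above the vehicle median in treated libraries, against -0.05 to 0.14 in vehicle. S3 and thick ascending limb markers gave no call among 8 tested each. Intercalated cells, which secrete acid or bicarbonate, gave 3 lower of 8 and a median of -0.23. Foxi1, their master transcription factor, was at 16.2 to 23.7 FPKM in vehicle (median 19.0) and 8.41 to 15.0 FPKM in treated replicates 2 to 8, with 21.2 FPKM in replicate 1. Foxi1 thus fell by 0.67 (adjusted p = 0.0015), or 0.79 without replicate 1, and Atp6v1b1, a proton pump subunit of these cells, fell by 0.24 with no overlap.

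In absolute terms the most abundant mRNAs moved by small folds. Besides Slc34a1, the larger gains in mean FPKM included those of Hsd3b4, a 3-beta-hydroxysteroid dehydrogenase family enzyme (296 FPKM, 0.84 on the log2 scale, no overlap), and Tsc22d1 (196 FPKM, 0.85). The largest losses were those of Dbi, the acyl-CoA binding protein (-383 FPKM), S100g (-370.0 FPKM), Uqcrb, a complex III subunit (-351 FPKM), and the ribosomal gene Rpl23a (-280.0 FPKM). Dbi fell by 0.49 on the log2 scale and Rpl23a by 0.37, both with no overlap.

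To see where the inhibitor differed from the hormone, the YKL-05-099 libraries were set against the 8 PTH libraries in the same model. Agent, route (intraperitoneal against subcutaneous) and time after dosing (3 hours against 1 hour) differ together and cannot be told apart. The direct comparison called 898 genes (6.42%), 397 higher (2.84%) and 501 lower (3.58%) with YKL-05-099, of which 18 (0.129%) and 42 (0.3%) changed by 1 or more (log2), and 320 genes (2.29%) were called in both YKL-05-099 comparisons. Crem showed a wide gap, at 9.51 to 19.7 FPKM with YKL-05-099 and 48.5 to 71.2 FPKM with PTH, a difference of -2.10 (adjusted p = 3.2e-11). Nr4a3 was at 1.27 to 4.38 FPKM with YKL-05-099 and 6.78 to 21.6 FPKM with PTH (-2.53, adjusted p = 1.9e-05), whereas Nr4a1 (-0.48, interval -1.14 to 0.18, adjusted p = 0.472) and Nr4a2 (-0.22, adjusted p = 0.801) were not called. Fgf18 (-2.43), Maff (-1.62), Fosl2 (-1.23), G6pc (-1.0), Dusp14 (-0.94) and Adamts1 (-0.92) were also lower with YKL-05-099 than with PTH. Fgf18 reached 0.83 to 5.74 FPKM with YKL-05-099 and 7.73 to 19.5 FPKM with PTH.

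For vitamin D genes the difference lay mainly in Cyp24a1. It was at 10.2 to 30.2 FPKM with YKL-05-099 and 0.73 to 6.04 FPKM with PTH, with no overlap, a difference of 2.61 (interval 1.83 to 3.39, adjusted p = 0.00015). Cyp27b1 was at 11.9 to 62.5 FPKM with YKL-05-099 and 29.8 to 142 FPKM with PTH, a difference of -0.91 (interval -1.5 to -0.33) that missed the threshold (adjusted p = 0.0677). Sik1 (0.11, adjusted p = 0.845) gave no call, Sik2 was lower with YKL-05-099 by -0.57 (adjusted p = 0.0419), and Slc34a1 was 0.34 higher (adjusted p = 0.0266).

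Further genes differed between the agents in either direction. Rasd1 was 1.08 higher (adjusted p = 0.01), Ddit4 0.83 higher and Hist1h1c 0.76 higher. Tfap4, a helix-loop-helix factor, was at 1.96 to 3.16 FPKM with YKL-05-099, 0.79 to 1.97 FPKM with PTH and 2.47 to 5.23 FPKM in vehicle, so that it was 1.10 above PTH (adjusted p = 7.2e-05). Its difference of -0.51 from vehicle lost its call without vehicle replicate 3 or 4 or YKL-05-099 replicate 4. Foxi1 was 1.01 lower with YKL-05-099 than with PTH (-1.01, adjusted p = 2.2e-05), Clk1 (-0.68, adjusted p = 0.00015), Gvin1 (-1.37) and Ccr2 (-1.04) likewise. By list, 10 of 18 unfolded protein response genes and 5 of 16 heat shock genes were lower with YKL-05-099 than with PTH and none higher, against 3.58% of all genes tested called lower in this comparison, and 7 of 21 clock genes were higher and 1 lower (2.84% higher over all genes).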

How the data were processed

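Per the labels, whole-kidney RNA was isolated in Trizol and read on a BGISEQ500 instrument. The authors deposited 1 table of FPKM values for 24 libraries in 3 groups of 8. Tools listed in the submitters' processing notes are RSEM 1.3.0, STAR 2.7.2b and DESeq2, with the builds mm10 and GRCm38, and no source used here gives the annotation release or the strand setting, so reads of overlapping or antisense genes may be mixed. Each FPKM is a share of its library's total, and 1 further value column that belonged to no sample was not used. The table gives no counts or lengths, so no count model was fitted and depth was only estimated from low values of transcripts of 700 to 1200 bases (77.2% to 82.4% of 239 to 289 values per library within 0.2 of a whole multiple). Identifiers linked 99.7% of entries to RefSeq, the source of the GRCm38 coordinates, and 25 symbols turned into dates were restored.

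Deposited FPKM were log2-transformed after adding 0.1 FPKM, so that folds of low genes are understated, and genes averaging 0.5 FPKM or more were kept. In R 4.3.3, limma 3.58.1 fitted 1 linear model to the 3 groups (lmFit, eBayes with trend), and genes were called below an adjusted p of 0.05 by the Benjamini-Hochberg method over all 13991 genes. Intervals at 95% are the estimate ± 1.96 SE. Adjusted p-values come from this model or, where the text names another fit or a left-out library, from the same method under that alternative. The code was run on simulated data with independent noise and no weak library, which cannot vouch for the p-values of these libraries. The 53 pathway, 24 cell type and 2 RNA quality lists are described by counts and medians and were not tested as sets, since 1137 entries include genes on several lists, and 16 entries matched no table entry. Tables and figures were made with pandas 2.3.3, numpy 2.4.6 and, for drawing, matplotlib 3.10.9 in Python 3.11.15.

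The libraries compared, the lists and the genes named were chosen with earlier results of these data known. Genes could be named among the 20 highest and 20 lowest fold changes among calls where either group averaged 1 FPKM or more, the 10 largest gains and losses in mean FPKM, the 10 smallest p-values, up to 5 members per list, the SIK, CRTC, deacetylase, vitamin D and sex-linked genes whatever their test, the 10 genes most moved by YKL-05-099 replicate 1 and the 10 highest and lowest against PTH among genes called in both comparisons. The choice among these was made with their values in view. Alternatives covered the pseudocount (0.5 and 1 FPKM), the filter (none, or 2 FPKM), scaling, library weights, a fit of the 2 groups compared, the replicate number as a block and leaving out each library. The fit without the 4 libraries highest in urothelium markers was added after the data were seen. Some results of the lists are not reported here.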

Additional observations from a re-analysis of the deposited data

Results flagged for a closer look

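In 260 groups of 8 libraries, one per named gene and treatment plus the library response, the highest or lowest library was tested for its distance from the rest with Dixon's criterion, which chance meets in about 1 of 20 groups. Of these, 30 met it, and 18 of the 30 were YKL-05-099 replicate 1. The genes named include the 10 most moved by that library, so these counts are a description and cannot be set against the chance rate. That library showed a median share of 0.356 of the others' fold change, whose shares were 0.877 to 1.18. It was the lowest treated library for Nr4a1 (12.87 FPKM, others 34.1 to 63.0), Fos (0.54, others 3.63 to 8.89), Egr1 (4.38, others 14.9 to 29.1), Dusp1 (43.75, others 122 to 181), Sik1 (26.16, others 57.2 to 77.7), Plk3 (15.46, others 43.1 to 99.0), Gadd45g (63.93, others 169 to 262) and Tsc22d1 (196.88, others 378 to 536). The same held for Rgs2 (10.11 FPKM), Mchr1 (0.96), Apold1 (1.49), Cebpb (8.2), Cebpd (14.45), Tsc22d3 (37.88), Errfi1 (205.47) and G6pc (172.75 FPKM). For Snora33 it was the only treated library above 0, at 6.07 FPKM.

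Other YKL-05-099 libraries stood apart for single genes. Replicate 6 was highest for Pth1r (170.12 FPKM) and Slc7a7 (115.29) and lowest for Ifit3 (6.98) and Moap1 (0). Replicate 4 was lowest for Sap25 (0 FPKM) and Tfap4 (1.96), replicate 7 was highest for Nr4a3 (4.38) and replicate 5 for Rnase6 (1.5 FPKM, others 0.14 to 0.4). Among vehicle libraries, replicate 2 was lowest for Dhcr7 (2.81 FPKM) and Slc20a2 (8.26), replicate 7 lowest for Mchr1 (0) and replicate 4 highest for Gbp4 (8.87).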

How the results depend on the processing

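Of 118 called genes followed, 107 kept their call and direction under every alternative run for them, and 11 lost the call under at least 1 (Cyp24a1, G6pc, Hist1h1d, Igfbp3, Mir29c, Nid1, S100g, Snora33, Snord72, Sparc and Tfap4). Against vehicle, library weights raised the counts to 1347 higher and 2487 lower. The count lower by at least 1 on the log2 scale was 21 with a pseudocount of 0.5 FPKM and 9 with 1 FPKM, where a larger constant shrinks the folds of low genes. It was 66 with no filter, which tests more low genes, and 19 with a mean of at least 2 FPKM, which tests fewer. Against PTH, the fit of the 2 groups gave 230 higher and 291 lower, and 278 were lower without the 4 libraries highest in urothelium markers. The corresponding counts by at least 1 were 5, 2 and 7 higher and 21, 19 and 24 lower with 0.5 FPKM, 1 FPKM and the 2 FPKM filter. When each of the 24 libraries was left out in turn, 702 to 1053 genes were higher and 1245 to 1875 lower than vehicle, 68 to 82 and 32 to 55 by at least 1. Against PTH the ranges were 288 to 513 higher and 340 to 689 lower, and 12 to 22 and 33 to 47 by at least 1. Vdr and Pth1r, neither called, changed sign. With each library left out in turn, the log2 fold change against vehicle was -0.03 to 0.04 for Vdr and -0.02 to 0.03 for Pth1r, and Pth1r was -0.01 with library weights and -0.0017 without the 4 libraries. The cause of these shifts was not tested. Replicate numbers only name the samples. With the replicate number as a block, 791 genes were higher and 1474 lower than vehicle (331 and 429 against PTH), same-numbered vehicle and YKL-05-099 samples deviated together with correlations of -0.072 to 0.202, and 1 of 8 samples correlated best with its own number. Of the calls named here, the block removed G6pc, Hist1h1d, S100g and Snora33. Read counts were not used, so genes near the 0.5 FPKM filter are the least certain.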

Other observations

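Other renal lists are given as counts, beside 6.26% of all tested genes called higher with YKL-05-099 and 11.5% called lower. Of 20 tested organic ion and drug transporters 2 were higher and none lower, of 11 water channel and vasopressin genes 2 higher and none lower, of 9 renin-angiotensin genes 2 higher and none lower, and of 21 sodium and chloride transport genes 3 higher and 1 lower. Of 17 glutathione, glucuronosyl and sulfotransferase genes 3 were higher and 1 lower, and of 15 cytochromes P450 outside vitamin D metabolism 1 was higher and 1 lower.

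Of 24 TGF-beta, BMP and activin genes 3 were higher and 2 lower, of 13 Notch genes 1 was higher, and of 16 hedgehog and Wnt genes 2 were higher, Ihh among them, and 1 lower. Tubular injury markers gave 1 higher and 1 lower of 13. Cell cycle and replication genes gave 1 higher and 2 lower of 20, and 2 higher and 5 lower without YKL-05-099 replicate 1.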
